A study of Arabidopsis thaliana with 12 samples.

Results

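The genes described here encode nucleolar and pre-ribosome assembly factors of Arabidopsis, in developing and dry seeds. The set was given as 60 loci. A locus was measured where a probe set of the array named it alone, and the brightest such probe set stood for it where there were several. This left 38 of the 60 loci, out of 13333 genes that the array's 22746 tested probe sets named alone. Signal was read on 12 Affymetrix ATH1 arrays of seeds of the Wassilewskija (WS) accession, grown in a greenhouse under long days. The groups were WT and KD seeds at 14 days after flowering (14DAF), in mid maturation, at 16 days (16DAF), at the end of maturation, and as dry seeds, with 2 arrays each. KD is an abbreviation that the labels leave unexplained beyond calling it a mutant. Lysine metabolism is the subject of the series, which refers to studies by Zhu and Galili. In those studies, as background, the lysine-degrading enzyme LKR/SDH was knocked out and a feedback-insensitive bacterial enzyme of lysine synthesis was expressed in seeds; which alleles KD combines is not stated. All 6 groups shared the WS background. All levels below are log2 signals, so a difference of 1 is a doubling, and each passing result has an adjusted p under 0.05 over all probe sets.

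A ribosome begins in the nucleolus, where RNA polymerase I makes a long precursor of ribosomal RNA (rRNA). Small nucleolar ribonucleoproteins (snoRNPs) of the box C/D and box H/ACA kinds guide methylation and pseudouridylation of that RNA. A large complex called the small subunit processome folds and cuts the part that becomes the small (40S) subunit. Other factors build the large (60S) subunit, and GTPases release late factors and prepare the particle for export. In plants and yeast these genes are known for following the demand for protein synthesis and growth. Mutants of many of them arrest in the female gametophyte or the embryo. Roles given for single loci are background, mostly from the yeast or human protein of the same family, since the gene table used here gave the locus code alone for 35 of the 38 loci.

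For 22 loci no probe set was named for them alone in the annotation used, in which 8730 probe sets are unnamed, and they were not analysed here. They are the nucleolin gene NUC-L1, the fibrillarin genes FIB1 and FIB2, NOP56, the pseudouridine synthase gene NAP57 and NOP10. They also include TOZ, SWA1, NOF1, PWP2 and AT3G11964 of the small subunit pathway, and EDA25, PPAN and eIF6A of the large subunit pathway. The GTPase genes AT1G08410, AT2G27200, AtNug2 and NSN1, the methyltransferase gene OLI2 and the Pumilio genes PUM23 and PUM24 complete this group, together with AT5G27120, whose probe set it shares with another gene.

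Replicate arrays correlated at r = 0.983 to 0.993 across probe sets. LKR/SDH read 8.87 to 10.61 on the 6 WT arrays and 12.8 to 13.88 on the 6 KD arrays. Where its probes lie relative to a mutation is unknown here, so these levels check the grouping and not a knockout. A pair of arrays (WT 16DAF replicate 1, KD dry replicate 1) carry a source name of the opposite genotype, and their LKR/SDH signals of 9.8 and 12.83 fell in the range of the genotype in their titles. Among the markers listed for the tissue, 0 of 13 embryo markers had a probe set naming them alone. The storage cupin genes AT1G03890 and AT4G36700, chosen with earlier results known, read 11.55 to 13.85 on all 12 arrays. Of the other tissues that excised seeds could hold, 3 of 11 seed coat markers, 1 of 9 endosperm markers and 1 of 7 markers of silique wall and funiculus were measured. In bulk seeds, fewer cells of a type and less RNA per cell cannot be told apart.

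The median member was lowest in WT seeds at 14DAF, was higher in WT seeds at each later stage, and was higher in KD than in WT seeds at all 3 stages. The median log2 signal of the 38 members was 6.79 and 6.87 on the WT 14DAF arrays, 7.66 and 7.94 at 16DAF and 8.19 and 8.1 in dry WT seeds. On the KD arrays it was 8.21 and 8.15 at 14DAF, 8.67 and 8.91 at 16DAF and 8.62 and 8.67 in dry seeds. The KD medians at 14DAF thus lay next to those of dry WT seeds. The median of all tested probe sets went from 5.19 to 5.28 at 14DAF to 4.91 to 4.97 in dry seeds, the opposite way. WT 14DAF had the lowest of the 6 group means for 36 of the 38 members, against 26.1% of all probe sets, and the exceptions were the dim loci AT5G08600 and AT1G10300. The highest group mean was in KD dry seeds for 20 members, in KD at 16DAF for 14, in WT dry seeds for 3 and in WT at 16DAF for 1. Among all probe sets these shares were 21.2%, 11.3%, 24% and 12.9%.

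**Figure D1:**
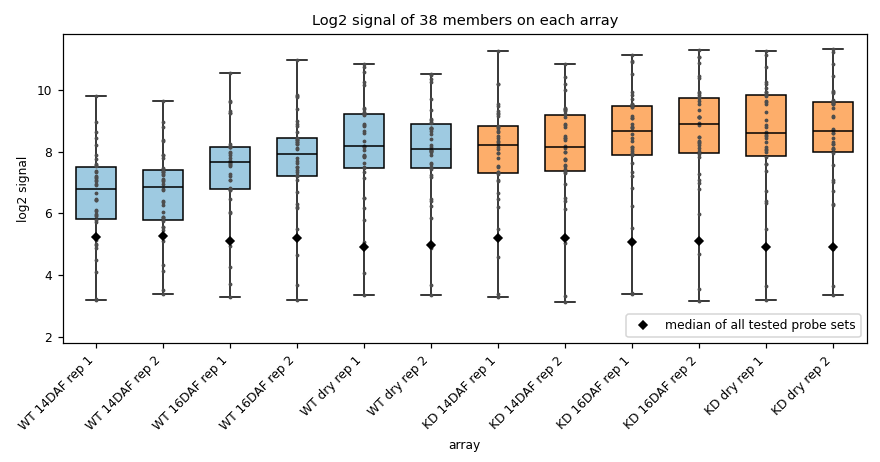
Log2 signal (vertical axis) of the 38 members on each of the 12 arrays (horizontal axis), as points with a box for the quartiles, a line for the median and whiskers to the extremes, blue for WT and orange for KD; diamonds give the median of all tested probe sets. The member median is lowest on the WT 14DAF arrays (6.79 and 6.87) and highest on the KD 16DAF arrays (8.67 and 8.91).

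**Figure D2:**
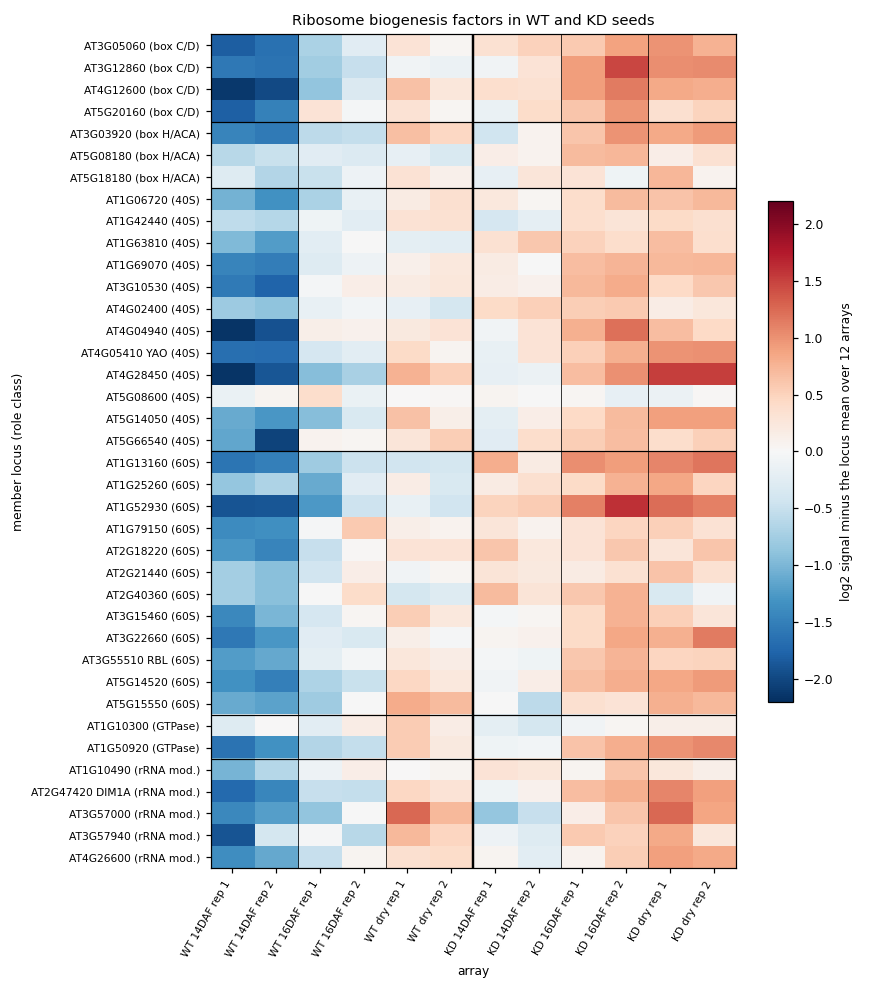
Log2 signal of each member (rows, grouped by role class) on each array (columns), minus the mean of that locus over the 12 arrays; blue is below and red above the mean, and the thick line separates WT from KD. The WT 14DAF columns hold the lowest group mean of 36 of the 38 loci.

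The first question was how KD seeds differed from WT seeds of the same stage. At 14DAF, 31 of 38 members were higher in KD and 0 lower, where 7.27% of all probe sets passed in either direction, 3.35% higher and 3.92% lower. Their median difference was 1.37, against 0.01 over all probe sets. At 16DAF, 23 members were higher in KD and 0 lower, with a median difference of 0.84, against 11.1% of all probe sets passing, 5.22% higher and 5.88% lower. In dry seeds 14 were higher and 0 lower, with a median of 0.39, against 7.91% passing, 4.01% higher and 3.9% lower. Of these, 13 loci passed at all 3 stages, as did 0.822% of all probe sets. The groups at 14DAF did not overlap, with KD above WT, for 36 of the 38 members, against 24.9% of all probe sets. The same held for 34 members at 16DAF, against 21.5%, and for 28 in dry seeds, against 23.7%. For 8 members all 6 KD arrays lay above all 6 WT arrays, against 1.29% of all probe sets. The count at 14DAF was 24 to 32 with any 1 array left out. At 16DAF it was 13 without KD 16DAF replicate 2 and 14 when both arrays with a conflicting source name were left out, and 12 from the arrays of that comparison alone. The count in dry seeds was 7 with the replicate number as a block, 9 with a trended variance and 9 after quantile normalization. It was 1 without WT dry replicate 2, 6 without WT dry replicate 1, 4 and 3 without KD dry replicates 1 and 2, 9 without KD 14DAF replicate 1 or 2, and 4 when both arrays with a conflicting source name were left out.

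**Figure D3:**
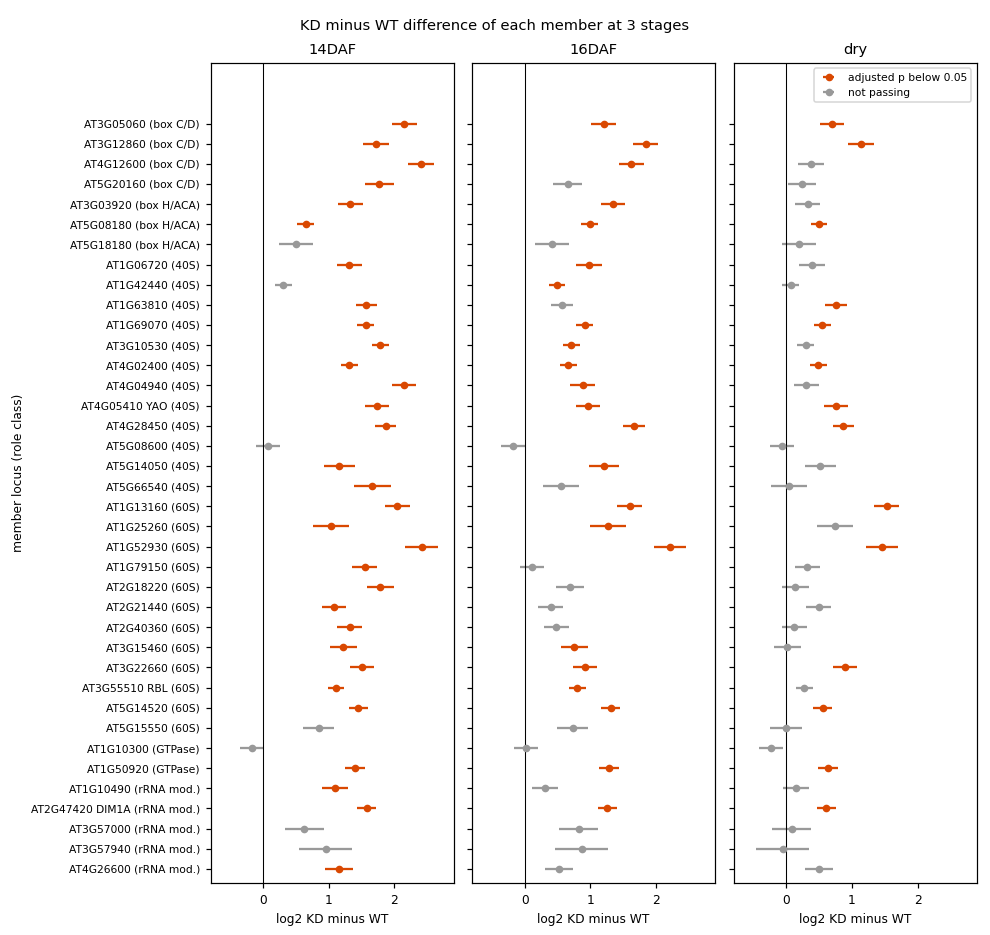
Log2 difference between KD and WT (horizontal axis, points with standard errors) for each member (vertical axis) in the panels for the 3 stages; orange points passed an adjusted p of 0.05 and grey points did not. Passing members number 31, 23 and 14, all to the right of 0.

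KD seeds at 14DAF were also set against WT seeds at 16DAF, as levels with no test, since both genotype and stage differ there. Both KD 14DAF arrays lay above both WT 16DAF arrays for 22 of the 38 members, and below both for 0, against 22.6% and 26.6% of all probe sets. The large subunit gene AT1G52930 is one example, at 9.33 and 9.39 in KD at 14DAF and 7.58 and 8.39 in WT at 16DAF. The KD 14DAF group mean was above that of dry WT seeds for 15 members, against 46.7% of all probe sets.

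Markers of other tissues were read beside these differences. At 14DAF, of the 3 measured seed coat markers, BAN read 6.76 and 8.18 in WT against 6.85 and 5.75 in KD, DFR 6.81 and 7.09 against 7.28 and 6.54, and DELTA-VPE 9.1 and 10.23 against 10.49 and 9.02, and 0 of the 3 passed. At 16DAF, DELTA-VPE was higher in KD by 1.86 (SE 0.456, adjusted p = 0.0267), and in dry seeds 0 of 3 passed. The endosperm marker AGL62 read 2.9 to 3.64 on all arrays, among the dimmest signals. The silique wall marker ADPG1 read 3.71 and 3.28 in WT and 6.71 and 4.69 in KD at 14DAF, without overlap (log2 difference 2.21, adjusted p = 0.206), and was highest in WT 16DAF replicate 2 (7.08). The 3' minus 5' signal of the actin, GAPDH and ubiquitin controls, a measure of RNA integrity and labelling, was 4.11 ± 0.08, 3.90 ± 0.50 and 3.35 ± 0.13 in WT at 14DAF, 16DAF and dryness, and 3.85 ± 0.37, 3.57 ± 0.25 and 3.40 ± 0.10 in KD (SD, n = 2). The part of these values in the result was not tested.

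Box C/D snoRNPs carry the 2'-O-methylation guides and, with the U3 snoRNA, start the processing of the precursor. All 4 measured members of this class were higher in KD at 14DAF, with a median difference of 1.96, and all 4 rose in WT between 14DAF and 16DAF. Of all probe sets, 3.35% were higher in that KD comparison and 9.2% rose at that WT step. AT4G12600, of the family of the yeast protein Snu13, which binds the kink of the guide RNA, read 6.66 and 6.79 on the WT arrays at 14DAF, 7.91 and 8.46 at 16DAF and 9.42 and 9.02 in dry seeds, and 9.15 and 9.11, then 9.7 and 9.92, then 9.61 and 9.58 on the KD arrays of the same stages. Both KD 14DAF arrays lay far above both WT arrays of that stage, and in dry seeds the gap between the genotypes was small. The KD minus WT difference was 2.41 (SE 0.195, adjusted p = 4e-04) at 14DAF, a 5.3-fold higher signal, and 1.63 (SE 0.195) at 16DAF, while the value in dry seeds was 0.38 (adjusted p = 0.333). Its paralog AT5G20160 read 7.14 and 7.44 on the WT arrays at 14DAF, 9.24 and 8.89 at 16DAF and 9.25 and 8.97 in dry seeds, and 8.79 and 9.33, then 9.54 and 9.9, then 9.28 and 9.42 on the KD arrays of the same stages. It rose by 1.78 (SE 0.219) in WT from 14DAF to 16DAF and its change when WT seeds dried was small (0.05, adjusted p = 0.905). Between the genotypes it was 1.77 (SE 0.219, adjusted p = 0.00181) higher in KD at 14DAF, and the value at 16DAF was 0.66 (adjusted p = 0.0881). The difference between the paralogs was not tested.

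Nop56 and Nop58 form the core of the box C/D particle in yeast, and both measured loci of this family passed at all 3 stages. AT3G05060, a Nop58-type gene, read 7.07 and 7.24 on the WT arrays at 14DAF, 8.18 and 8.63 at 16DAF and 9.18 and 8.93 in dry seeds, and 9.22 and 9.39, then 9.45 and 9.76, then 9.86 and 9.64 on the KD arrays of the same stages. All 6 KD arrays lay above all 6 WT arrays. The KD minus WT difference was 2.15 (SE 0.187, adjusted p = 0.000453) at 14DAF, 1.2 (SE 0.187) at 16DAF and 0.7 (SE 0.187, adjusted p = 0.0497) in dry seeds. AT3G12860, a Nop56-type gene, read 7.34 and 7.28 on the WT arrays at 14DAF, 8.15 and 8.4 at 16DAF and 8.83 and 8.78 in dry seeds, and 8.83 and 9.22, then 9.84 and 10.39, then 9.93 and 9.96 on the KD arrays of the same stages. Its highest group mean was that of KD at 16DAF, and its difference from WT was 1.72 (SE 0.195), 1.84 (SE 0.195, adjusted p = 0.000626) and 1.14 (SE 0.195, adjusted p = 0.00614) at the 3 stages. In KD it rose 2.13-fold from 14DAF to 16DAF (log2 1.09, SE 0.195, adjusted p = 0.0088); this was 0.90 (adjusted p = 0.08) when KD 14DAF replicate 1 was left out and 0.82 (adjusted p = 0.0697) when KD 16DAF replicate 2 was. The dry seed difference had an adjusted p of 0.0525 without WT dry replicate 2 and 0.0562 without KD dry replicate 2.

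Of the box H/ACA class, which guides pseudouridylation, 3 loci were measured and 2 were higher in KD at 14DAF and at 16DAF. The shares of all probe sets higher in KD were 3.35% and 5.22%. AT3G03920, of the family of the yeast protein Gar1, was the brightest member of the class and read 8.45 and 8.35 on the WT arrays at 14DAF, 9.33 and 9.39 at 16DAF and 10.57 and 10.37 in dry seeds, and 9.47 and 9.99, then 10.52 and 10.89, then 10.75 and 10.84 on the KD arrays of the same stages. It rose at both WT steps, by 0.96 (SE 0.188) and 1.11 (SE 0.188, adjusted p = 0.000902), and by 0.98 (SE 0.188) in KD from 14DAF to 16DAF. In drying KD seeds its change was 0.09 (adjusted p = 0.771), and the dry groups of the genotypes lay close together (0.33, adjusted p = 0.397). The KD increase had an adjusted p of 0.0936 when KD 14DAF replicate 1 was left out and 0.102 when KD 16DAF replicate 2 was. The other Gar1-type locus, AT5G18180, was dim and passed in no comparison, at 4.49 and 4.13, then 4.28 and 4.66, then 5.09 and 4.88 in WT at 14DAF, 16DAF and dryness, and 4.59 and 5.04, then 5.08 and 4.68, then 5.51 and 4.85 in KD. AT5G08180, of the Nhp2 family, read 7.78 and 7.9 on the WT arrays at 14DAF, 8.14 and 8.08 at 16DAF and 8.2 and 8.05 in dry seeds, and 8.52 and 8.46, then 9.08 and 9.12, then 8.53 and 8.72 on the KD arrays of the same stages. All 6 KD arrays lay above all 6 WT arrays here too, with differences of 0.65 (SE 0.127), 0.99 (SE 0.127, adjusted p = 0.00126) and 0.5 (SE 0.127, adjusted p = 0.0388). It was 1 of only 2 members that passed downward in any comparison: in drying KD seeds it fell by 0.48 (SE 0.127, adjusted p = 0.014), with an adjusted p of 0.0563 to 0.113 without KD 16DAF replicate 1 or 2 or KD dry replicate 1, of 0.124 when both arrays with a conflicting source name were left out, and of 0.108 with the arrays centred.

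The small subunit processome gave 12 measured loci. Of these, 10 were higher in KD at 14DAF, 9 at 16DAF and 5 when dry, against 3.35%, 5.22% and 4.01% of all probe sets. In WT, 10 of the 12 rose between 14DAF and 16DAF, against 9.2% of all probe sets. AT4G04940, of the family of the yeast WD-repeat protein Utp21, moved most at that step and read 4.99 and 5.23 on the WT arrays at 14DAF, 7.28 and 7.23 at 16DAF and 7.35 and 7.45 in dry seeds, and 7.07 and 7.44, then 7.92 and 8.35, then 7.83 and 7.58 on the KD arrays of the same stages. The WT 14DAF arrays stood more than 1 unit below every other array, near the median of all probe sets, where signals are dim and the size of a fold is uncertain. It rose 4.42-fold in WT (log2 2.15, SE 0.186, adjusted p = 6.29e-05) and was 2.15 (SE 0.186, adjusted p = 0.000453) higher in KD at 14DAF. From 14DAF to 16DAF it rose by 0.88 (SE 0.186, adjusted p = 0.0173) in KD, with an adjusted p of 0.135 when KD 14DAF replicate 1 was left out and 0.136 when KD 16DAF replicate 2 was. In dry seeds the genotypes differed by 0.31 (adjusted p = 0.43).

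AT3G10530, of the Utp7 family, and AT5G66540, of the family of the U3 protein Mpp10, are both parts of the processome in yeast. AT3G10530 read 6.1 and 5.89, then 7.61 and 7.8, then 7.84 and 7.9 in WT at 14DAF, 16DAF and dryness, and 7.81 and 7.75, then 8.36 and 8.47, then 8.09 and 8.24 in KD. AT5G66540 read 6.45 and 5.56, then 7.67 and 7.65, then 7.87 and 8.14 in WT at 14DAF, 16DAF and dryness, and 7.35 and 7.99, then 8.15 and 8.28, then 7.98 and 8.12 in KD. Each was low on the WT 14DAF arrays alone. They rose in WT by 1.71 (SE 0.134, adjusted p = 3.87e-05) and 1.66 (SE 0.277, adjusted p = 0.00225), and the drying step in WT gave 0.17 (adjusted p = 0.393) and 0.35 (adjusted p = 0.385). In KD, AT3G10530 rose by 0.64 (SE 0.134) between 14DAF and 16DAF, and AT5G66540 measured 0.55 (adjusted p = 0.275). NOP14-family AT1G69070, a partner of the U3 particle in yeast, and YAO (AT4G05410), a U3-associated WD-repeat protein needed for embryo sac development, rose by 1.29 (SE 0.129) and 1.36 (SE 0.184) over the same WT step. Both also passed at all 3 stages between genotypes, YAO by 1.74 (SE 0.184), 0.96 (SE 0.184) and 0.76 (SE 0.184).

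AT4G28450, of the family of the yeast processome protein Sof1, passed in all 7 comparisons between groups, the only member to do so. It read 5.97 and 6.26 on the WT arrays at 14DAF, 7.2 and 7.42 at 16DAF and 8.9 and 8.66 in dry seeds, and 7.96 and 8.0, then 8.81 and 9.14, then 9.65 and 9.65 on the KD arrays of the same stages. The level was higher at each later stage in both genotypes with no overlap between successive groups, and KD lay above WT at each stage. It rose in WT by 1.2 (SE 0.164) and then 1.47 (SE 0.164, adjusted p = 5.68e-05), and in KD by 0.995 (SE 0.164, adjusted p = 0.00632) and 0.68 (SE 0.164, adjusted p = 0.00845). Against WT it was higher by 1.87 (SE 0.164), 1.67 (SE 0.164, adjusted p = 0.000457) and 0.87 (SE 0.164) at the 3 stages. The KD increases were the less stable, with an adjusted p of 0.055 for the first when KD 14DAF replicate 1 was left out, 0.061 when KD 16DAF replicate 2 was, and 0.0844 for the second when KD 16DAF replicate 1 was.

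The remaining loci of the small subunit class included AT5G14050 (Utp18 family), AT1G63810 (Utp22 family), and AT4G02400 and AT5G08600 (Utp14 family). The others were AT1G06720 (the GTPase Bms1 family) and its relative AT1G42440 (Tsr1 family). For AT4G02400 and AT1G63810 all 6 KD arrays lay above all 6 WT arrays. AT4G02400 read 7.57 and 7.47, then 8.2 and 8.31, then 8.18 and 7.98 in WT at 14DAF, 16DAF and dryness, and 8.78 and 8.89, then 8.91 and 8.93, then 8.52 and 8.61 in KD, with KD higher by 1.32 (SE 0.127), 0.67 (SE 0.127) and 0.49 (SE 0.127, adjusted p = 0.0441). Its paralog AT5G08600 was dim throughout and passed in no comparison, at 3.19 and 3.4, then 3.73 and 3.19, then 3.35 and 3.37 in WT at 14DAF, 16DAF and dryness, and 3.4 and 3.34, then 3.39 and 3.17, then 3.21 and 3.37 in KD. The Utp22-type AT1G63810 was 1.57 (SE 0.163, adjusted p = 0.000822) higher in KD at 14DAF and 0.76 (SE 0.163, adjusted p = 0.0198) in dry seeds, with 0.57 (adjusted p = 0.0504) at 16DAF. The brightest of the class, AT5G14050, read 7.54 and 7.37, then 7.71 and 8.31, then 9.3 and 8.78 in WT at 14DAF, 16DAF and dryness, and 8.44 and 8.79, then 9.08 and 9.35, then 9.56 and 9.56 in KD. Among the stage steps it passed on drying of WT seeds alone (log2 1.03, SE 0.233, adjusted p = 0.00528), with 0.56 (adjusted p = 0.134) at the step before. AT5G14050 and AT1G06720 were higher in KD at 14DAF (1.16 and 1.32) and 16DAF (1.21 and 0.98). For AT1G42440 KD minus WT was 0.31 (adjusted p = 0.175) at 14DAF, 0.49 (SE 0.124, adjusted p = 0.0302) at 16DAF and 0.07 (adjusted p = 0.865) in dry seeds.

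Large subunit assembly gave 12 measured loci. Of these, 11 were higher in KD at 14DAF, 7 at 16DAF and 4 when dry, against 3.35%, 5.22% and 4.01% of all probe sets. AT1G52930, of the Brix-domain family whose yeast member Brx1 acts in the early large subunit particle, showed the largest KD minus WT difference of all members at 14DAF and 16DAF. It read 6.94 and 6.95 on the WT arrays at 14DAF, 7.58 and 8.39 at 16DAF and 8.67 and 8.41 in dry seeds, and 9.33 and 9.39, then 9.94 and 10.45, then 10.06 and 9.94 on the KD arrays of the same stages. All 6 KD arrays lay above all 6 WT arrays. Its signal was 5.33-fold higher in KD at 14DAF (log2 2.42, SE 0.248, adjusted p = 0.000763), 4.63-fold at 16DAF (log2 2.21, SE 0.248, adjusted p = 0.000754) and 2.75-fold in dry seeds (log2 1.46, SE 0.248, adjusted p = 0.00597). Leaving out WT dry replicate 2 gave the last an adjusted p of 0.0609. The paralog AT3G15460 read 6.92 and 7.34 on the WT arrays at 14DAF, 7.98 and 8.38 at 16DAF and 8.88 and 8.58 in dry seeds, and 8.31 and 8.39, then 8.76 and 9.11, then 8.87 and 8.62 on the KD arrays of the same stages. There the dry groups overlapped, and the difference was 1.22 (SE 0.206) at 14DAF, 0.76 (SE 0.206, adjusted p = 0.0419) at 16DAF and 0.02 (adjusted p = 0.983) in dry seeds. In WT the Brx1-type paralogs rose from 14DAF to 16DAF by 1.04 (SE 0.248) and 1.05 (SE 0.206).

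AT1G13160, of the Sda1 family, which in yeast acts in maturation and export of the large subunit, had the largest KD minus WT difference in dry seeds. It read 5.96 and 6.05 on the WT arrays at 14DAF, 6.78 and 7.09 at 16DAF and 7.14 and 7.18 in dry seeds, and 8.36 and 7.74, then 8.58 and 8.49, then 8.64 and 8.74 on the KD arrays of the same stages. The KD arrays all lay above the WT arrays, and the difference was 2.05 (SE 0.193) at 14DAF, 1.6 (SE 0.193) at 16DAF and 1.53 (SE 0.193, adjusted p = 0.00131) in dry seeds. It was the locus that still passed in dry seeds when WT dry replicate 2 was left out. AT3G22660, of the Ebp2 family, read 6.46 and 6.75, then 7.79 and 7.7, then 8.17 and 8.01 in WT at 14DAF, 16DAF and dryness, and 8.09 and 8.12, then 8.45 and 8.88, then 8.81 and 9.17 in KD, and KD was higher by 1.5 (SE 0.183), 0.92 (SE 0.183) and 0.9 (SE 0.183, adjusted p = 0.0147). Its dry seed value had an adjusted p of 0.0525 without WT dry replicate 1, 0.114 without WT dry replicate 2 and 0.141 without KD dry replicate 2.

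**Figure D4:**
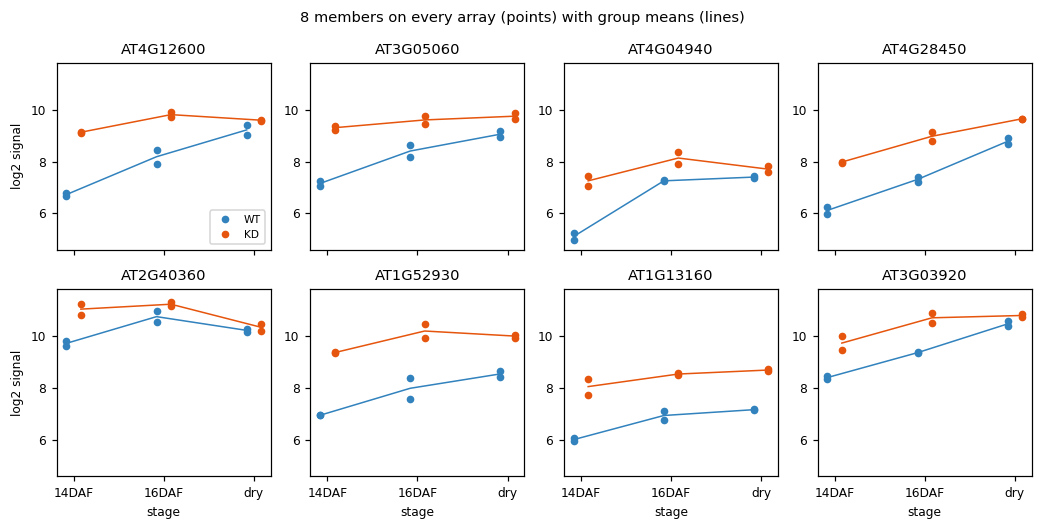
Log2 signal (vertical axis) of 8 members by stage (horizontal axis), with a point for each array, blue for WT and orange for KD, and lines through the group means. Every plotted locus has a KD group mean above that of WT at each stage. The gap narrows at each later stage for all of them except AT3G03920. For AT3G05060, AT1G52930 and AT1G13160 all 6 KD arrays lie above all 6 WT arrays. AT2G40360 is lower in dry than in 16DAF seeds of both genotypes.

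Pescadillo, Bop1 and WDR12 form 1 complex in yeast and animals that is needed for processing of the large subunit rRNA, and all 3 Arabidopsis loci were measured. AT5G14520, of the Pescadillo family, read 8.95 and 8.79 on the WT arrays at 14DAF, 9.61 and 9.8 at 16DAF and 10.74 and 10.51 in dry seeds, and 10.21 and 10.43, then 10.95 and 11.08, then 11.13 and 11.23 on the KD arrays of the same stages. It rose at both WT steps, by 0.84 (SE 0.146) and 0.92 (SE 0.146, adjusted p = 0.000613), and was higher in KD at all 3 stages, by 1.45 (SE 0.146), 1.31 (SE 0.146) and 0.56 (SE 0.146, adjusted p = 0.0454). AT2G40360, of the Bop1 family and the brightest member of the class, read 9.81 and 9.63 on the WT arrays at 14DAF, 10.54 and 10.96 at 16DAF and 10.17 and 10.27 in dry seeds, and 11.25 and 10.83, then 11.15 and 11.31, then 10.21 and 10.47 on the KD arrays of the same stages. It rose by 1.03 (SE 0.19) in WT between 14DAF and 16DAF, and its dry groups lay below the 16DAF groups in both genotypes. In drying KD seeds it fell 1.85-fold (log2 -0.89, SE 0.19, adjusted p = 0.00405), and in WT the change was -0.53 (adjusted p = 0.0506). AT5G15550, of the WDR12 family, read 6.43 and 6.36, then 6.75 and 7.52, then 8.34 and 8.22 in WT at 14DAF, 16DAF and dryness, and 7.52 and 6.96, then 7.89 and 7.84, then 8.31 and 8.24 in KD. On drying of WT seeds it rose by 1.15 (SE 0.241, adjusted p = 0.00349), and it was not past the threshold between the genotypes at any stage (0.85, adjusted p = 0.0644 at 14DAF). Whether the 3 loci differed from each other was not tested.

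The Noc proteins move large subunit particles from the nucleolus to the nucleoplasm in yeast. AT1G79150, of the Noc3 family, rose by 1.64 (SE 0.188, adjusted p = 0.000272) in WT between 14DAF and 16DAF, and read 7.89 and 7.91, then 9.24 and 9.84, then 9.4 and 9.35 in WT at 14DAF, 16DAF and dryness, and 9.54 and 9.35, then 9.56 and 9.74, then 9.8 and 9.59 in KD. On this probe set only the WT 14DAF arrays stood apart. AT2G18220, of the Noc2 family, read 6.07 and 5.89, then 6.84 and 7.36, then 7.64 and 7.64 in WT at 14DAF, 16DAF and dryness, and 7.95 and 7.58, then 7.64 and 7.94, then 7.61 and 7.95 in KD. Its relative RBL (AT3G55510), known as REBELOTE for its role in floral meristem termination, read 5.01 and 5.12, then 6.03 and 6.2, then 6.5 and 6.41 in WT at 14DAF, 16DAF and dryness, and 6.2 and 6.15, then 6.84 and 6.99, then 6.72 and 6.74 in KD. By their brightest probe sets all 3 loci were higher in KD at 14DAF (1.55, 1.79 and 1.11), only RBL passed at 16DAF (0.8, adjusted p = 0.00321) and 0 passed in dry seeds. A dimmer probe set of AT1G79150 was also higher in KD at 16DAF (0.88, SE 0.161, adjusted p = 0.00678). The last large subunit loci were AT2G21440, an RNA-binding protein of the Nop4 or RBM28 family, and AT1G25260, of the Mrt4 family, which holds the place of the stalk in the young particle. All 6 KD arrays lay above all 6 WT arrays for both. AT1G25260 read 8.22 and 8.39, then 7.97 and 8.82, then 9.23 and 8.74 in WT at 14DAF, 16DAF and dryness, and 9.25 and 9.43, then 9.5 and 9.84, then 9.92 and 9.54 in KD; KD was higher by 1.04 (SE 0.274, adjusted p = 0.0493) and 1.28 (SE 0.274, adjusted p = 0.0148) at 14DAF and 16DAF. For AT2G21440 only the 14DAF value passed (log2 1.08, SE 0.189, adjusted p = 0.00852). AT1G25260 was the only large subunit locus other than AT5G15550 that did not pass from 14DAF to 16DAF in WT (0.09, adjusted p = 0.873).

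The 2 measured GTPase loci belong to the Nog1 family, which loads onto large subunit precursors. AT1G50920 read 8.65 and 8.95 on the WT arrays at 14DAF, 9.64 and 9.76 at 16DAF and 10.84 and 10.5 in dry seeds, and 10.19 and 10.21, then 10.9 and 11.07, then 11.27 and 11.34 on the KD arrays of the same stages. It passed in 6 of 7 comparisons: it rose in WT by 0.9 (SE 0.157) and 0.97 (SE 0.157, adjusted p = 0.00068), in KD by 0.79 (SE 0.157) at the first step, and KD was higher by 1.4 (SE 0.157), 1.29 (SE 0.157) and 0.64 (SE 0.157, adjusted p = 0.0349). Its paralog AT1G10300 was dim and passed in none, at 3.23 and 3.52, then 3.28 and 3.67, then 4.07 and 3.68 in WT at 14DAF, 16DAF and dryness, and 3.29 and 3.13, then 3.43 and 3.55, then 3.64 and 3.64 in KD. The enzymes that modify rRNA gave 5 loci. DIM1A (AT2G47420), a dimethylase of the small subunit rRNA, read 7.06 and 7.33 on the WT arrays at 14DAF, 8.26 and 8.24 at 16DAF and 9.23 and 9.07 in dry seeds, and 8.67 and 8.87, then 9.45 and 9.56, then 9.84 and 9.67 on the KD arrays of the same stages, and KD was higher by 1.58 (SE 0.145), 1.26 (SE 0.145) and 0.61 (SE 0.145, adjusted p = 0.0311). AT3G57000, of the Emg1 or Nep1 methyltransferase family and the brightest of the class, read 7.6 and 7.81 on the WT arrays at 14DAF, 8.15 and 9.0 at 16DAF and 10.27 and 9.72 in dry seeds, and 8.16 and 8.51, then 9.16 and 9.63, then 10.27 and 9.89 on the KD arrays of the same stages. It rose by 1.42 (SE 0.298, adjusted p = 0.00344) in drying WT seeds, and KD minus WT was 0.63, 0.82 and 0.09, none of which passed (adjusted p from 0.114 to 0.933). The methyltransferase locus AT4G26600 (Nop2 family) and the acetyltransferase locus AT1G10490 (NAT10 family) were higher in KD at 14DAF alone among the stages, by 1.16 (SE 0.214) and 1.1 (SE 0.198). AT1G10490 read 5.15 and 5.55, then 6.06 and 6.32, then 6.18 and 6.24 in WT at 14DAF, 16DAF and dryness, and 6.47 and 6.42, then 6.23 and 6.78, then 6.42 and 6.3 in KD. The other NAT10-type locus, AT3G57940, read 4.88 and 6.39, then 6.75 and 6.17, then 7.5 and 7.25 in WT at 14DAF, 16DAF and dryness, and 6.67 and 6.5, then 7.36 and 7.29, then 7.61 and 7.03 in KD; its WT 14DAF arrays lay far apart, and it passed in no comparison.

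The second question was how the genes changed as seeds matured and dried. The WT 14DAF arrays enter both this comparison and that of the genotypes at 14DAF, and the other groups are shared in the same way, so the results of the stages and of the genotypes are not independent. In WT seeds, 29 of 38 members rose from 14DAF to 16DAF and 0 fell, against 9.2% and 10.3% of all probe sets (19.5% in all). The median change was 0.97, against 0.05 over all probe sets. All arrays of 16DAF lay above those of 14DAF for 33 members, against 30.4% of all probe sets, and the count was 24 to 31 with any 1 array left out. The members that did not pass were AT1G25260, AT1G10300, AT5G18180, AT5G08600, AT5G08180, AT5G14050, AT5G15550, AT3G57940 and AT3G57000. Over the same days BAN and DELTA-VPE of the seed coat fell, with log2 changes of -2.91 (SE 0.424) and -4.04 (SE 0.456), and their part in the result was not tested. On drying of WT seeds 14 members rose and 0 fell, against 20.4% and 16.9% of all probe sets. This share of 36.8% of the members passing in either direction lay near the 37.3% of all probe sets, and the arrays did not overlap, dry above 16DAF, for 28 members, against 35%. The median change was 0.52, against 0.02 over all probe sets, and the count was 9 without WT dry replicate 1 and 26 with the arrays centred on their medians. The seed coat markers DFR and DELTA-VPE fell as WT seeds dried, with log2 changes of -1.96 (SE 0.231, adjusted p = 8.49e-05) and -1.69 (SE 0.456, adjusted p = 0.014), and as KD seeds dried, with -1.91 (SE 0.231, adjusted p = 0.000104) and -3.56 (SE 0.456, adjusted p = 0.000153); their part in the results on drying was not tested.

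In KD seeds 12 of 38 members rose from 14DAF to 16DAF and 0 fell, against 4.63% and 4.86% of all probe sets (9.5% in all), with a median change of 0.59 against 0.01. That count was 0 when KD 14DAF replicate 1 or KD 16DAF replicate 2 was left out, and 7 without KD 16DAF replicate 1. The arrays of the compared groups did not overlap for 31 members, KD 16DAF above KD 14DAF, against 26.5% of all probe sets. Of the 38 members, 11 (28.9%) rose at this step in both genotypes, against 2.94% of all probe sets, and AT5G08180 passed in KD and not in WT. Of the seed coat markers, BAN and DELTA-VPE fell over the same days in KD, with log2 changes of -1.64 (SE 0.424, adjusted p = 0.0384) and -2.27 (SE 0.456, adjusted p = 0.0143), and their part in the result was not tested. On drying of KD seeds 1 member rose and 2 fell, against 19.6% and 15.3% of all probe sets (34.9% in all). The dry arrays lay above the 16DAF arrays for 12 members, against 36.2%. The median change was 0.06 in the values as deposited. Centring the arrays made it 0.24, with 6 members higher and 1 lower, and quantile normalization made it -0.09, with 2 higher and 5 lower, so the direction depended on the scaling. The members that passed were AT4G28450, which rose, and AT2G40360 and AT5G08180, which fell.

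**Figure D5:**
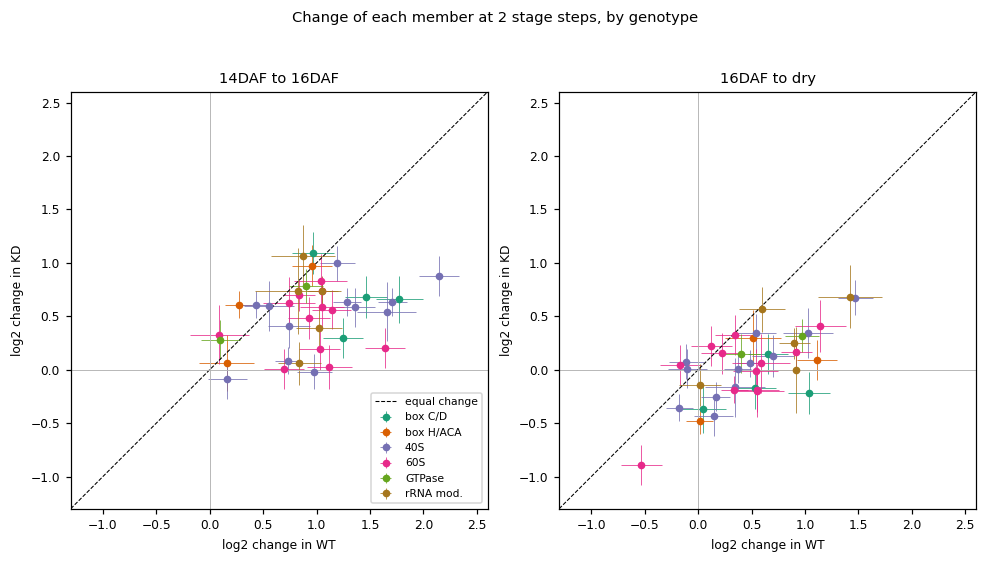
Log2 change of each member in WT (horizontal axis) and KD (vertical axis) from 14DAF to 16DAF and from 16DAF to dry, with standard errors and colours for the role classes; the dashed line marks equal change. Most points lie below the line: the change was more positive in WT than in KD for 30 members at the first step and 34 at the second.

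The third question was whether the stage steps differed between the genotypes. By limma's test of the interaction (KD change minus WT change), 0 of 38 members passed at either step. Of all probe sets, 0.356% passed at the first (0.202% above 0, 0.154% below) and 1.38% at the second (0.765% and 0.611%). At an unadjusted p under 0.05, 16 and 11 members passed, against 13.7% of all probe sets at each step. The change was more positive in WT than in KD for 30 members from 14DAF to 16DAF and for 34 on drying. This held for 53.9% and 48.8% of all probe sets. AT2G40360, counted among the 34, fell in both genotypes and fell further in KD. The median interaction was -0.39 and -0.51. The nearest to the threshold were AT3G10530 at the first step (log2 -1.08, SE 0.19, adjusted p = 0.0509) and AT4G12600 at the second (log2 -1.25, SE 0.276, adjusted p = 0.0607). Over the stages, the median KD minus WT difference was 1.37, 0.84 and 0.39, and 26 members had a smaller difference at each later stage, against 19.4% of all probe sets.

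Other genes of the pathway were read from a list of 60 loci, of which 35 were measured. They covered RNA polymerase I, the RNA exosome, nucleolar helicases, export and further assembly factors. This list too was chosen with earlier results of these data known, so it is not an independent check. In WT 20 rose from 14DAF to 16DAF and 0 fell, against 9.2% and 10.3% of all probe sets. On drying of WT seeds 18 rose and 1 fell, so that 54.3% passed in either direction against 37.3% of all probe sets. In KD 8 rose and 0 fell from 14DAF to 16DAF, against 4.63% and 4.86%. On drying of KD seeds 11 rose and 2 fell, a share of 37.1% that lay near the 34.9% of all probe sets. KD was higher for 19 at 14DAF, 13 at 16DAF and 3 when dry, against 3.35%, 5.22% and 4.01% of all probe sets, and lower for 0 at each. The difference was negative, without passing, for 2, 4 and 6 of the 35. RNA polymerase I, which makes the rRNA precursor, had 4 measured subunit loci, all of which were higher in KD at 14DAF and rose in WT from 14DAF to 16DAF. Between the genotypes, 1 of the 4 passed at 16DAF and 0 in dry seeds. At these stages AT3G13940 was the 1 locus with a negative difference, -0.39 (adjusted p = 0.274) and -0.13 (adjusted p = 0.823). NRPA1 (AT3G57660), its largest subunit, rose by 1.74 (SE 0.244) in WT and was 1.6 (SE 0.244, adjusted p = 0.00447) higher in KD at 14DAF. AT3G25940, of the family of its small yeast subunit Rpa12, was 1.82 (SE 0.272) higher at 14DAF and 1.19 (SE 0.272, adjusted p = 0.0195) at 16DAF. Of the nucleolar DEAD-box helicases 7 of 12 were higher in KD at 14DAF and 2 of 12 at 16DAF, among them AT3G18600 by 1.67 (SE 0.156) at 14DAF. At 16DAF the helicase loci that passed were AT5G60990, of the family of the yeast helicase Rrp3, by 1.71 (SE 0.319), and PRH75 (AT5G62190) by 1.14 (SE 0.179). In dry seeds the 3 that passed were the helicase locus AT1G77030 (log2 0.94, SE 0.193, adjusted p = 0.0159), the exosome subunit locus AT1G60080 (log2 0.8, SE 0.151, adjusted p = 0.0106) and AT5G40530, of the Rrp8 rRNA methyltransferase family (log2 0.8, SE 0.198, adjusted p = 0.0359). The exosome, which trims the rRNA ends, had 3 of 9 higher at 14DAF and 5 of 9 at 16DAF. AT1G02870, for which no role is given here, rose by 1.5 (SE 0.238) and 1.7 (SE 0.238) at the WT steps. AT4G15770, of the Nip7 family of large subunit factors, rose at both WT steps, by 1.5 (SE 0.257) and 1.59 (SE 0.257). The rRNA endonuclease locus AT5G41190 (Nob1 family), which makes the last cut of the small subunit rRNA in yeast, rose on drying in both genotypes, by 1.3 (SE 0.213) in WT and 1.03 (SE 0.213) in KD. AT3G18600 was the 1 locus of this list that passed an interaction, with a step from 14DAF to 16DAF smaller in KD by 1.49 (SE 0.221, adjusted p = 0.031).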

How the data were processed

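Signal was measured on 12 Affymetrix ATH1 arrays, 2 for each of 6 groups, and groups were taken from the titles (for WT dry replicate 1, from the description). The deposited log2 values were made by the authors with RMA, and Partek is also listed, per the submitters' processing notes; the scale was read from the values, and no version or setting is stated. RMA equalises the probe intensities of the arrays before they are summarised, so a shift common to all transcripts would not be seen. The summarised values were not equal in distribution, with array medians from 4.91 to 5.28. The labels do not tie the repeats to separate plants, so p-values cover only the variation between these repeats, which may be technical. Precision is limited by the number of arrays. After 64 control probe sets were left out, 22746 remained, of which 13513 named 1 gene, 503 several and 8730 were unnamed here. Gene IDs tied 13484 to loci of the TAIR10.1 table.

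Means of the 6 groups were fitted to all arrays and probe sets with limma 3.58.1 in R 4.3.3 (lmFit and eBayes), with 9 contrasts, two-sided tests and the Benjamini-Hochberg adjustment across all probe sets at 0.05. Errors are model standard errors unless given as SD. On simulated data for the 14DAF genotype comparison over 22746 probe sets, 84% of changes of 1 log2 unit and 100% of changes of 2 were recovered. In that simulation 200 probe sets were changed, and 14 of the 198 calls were false. Its noise was normal and independent between arrays, and the data gave 1654 calls in this comparison. These rates therefore need not hold for the data. Replicate numbers were not treated as pairs in the main fit, since the labels tie them to nothing shared. Same-numbered arrays deviated from their group means with correlations of -0.33 to 0.417 between groups. These values do not show that the arrays were independent, and a batch shared by some arrays was not tested. The alternatives left out arrays, rescaled them, changed the variance model, added a replicate block, used a contrast's own arrays, dropped probe sets with a mean log2 signal under 5, or took the dimmest probe set. The members and lists were chosen with earlier results of these data known. Values per array were given for up to 4 passing increases and 4 decreases per contrast whose arrays did not overlap, for paralog pairs and for the brightest member of a class, and other members were added after their values were seen; of the other pathway genes, up to 4 per contrast were eligible, and those named were picked among the listed loci by role. Plots were drawn with Python 3.11.15 and matplotlib 3.10.9.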

Additional observations from a re-analysis of the deposited data

Results flagged for a closer look

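On drying, 5 members had every dry array above every 16DAF array in WT and every dry array below every 16DAF array in KD. These were 13.2% of the 38 measured members, against 1.61% of all probe sets, and the opposite pattern held for 0 members, against 1.97%. The interaction (KD change minus WT change) was -1.25 (SE 0.276) for AT4G12600, -0.42 (SE 0.19) for AT3G10530, -0.58 (SE 0.262) for AT4G04940, -0.51 (SE 0.391) for AT5G66540 and -0.53 (SE 0.177) for RBL (AT3G55510). By limma's test 0 of the 5 passed, with adjusted p of 0.0607, 0.376, 0.374, 0.641 and 0.214. In WT, AT4G12600 rose on drying (log2 1.04, SE 0.195, adjusted p = 0.00182), and in KD none of the 5 passed.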

How the results depend on the processing

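The KD minus WT count at 14DAF (31) and the WT count from 14DAF to 16DAF (29) stayed within 1.5 times under every alternative run, at 30 to 32 and 22 to 31 outside the ranges below. With the arrays centred on their medians, 26 members passed on drying in WT, 7 on drying in KD, and 1 in each interaction. After quantile normalization 7 passed on drying in KD, 9 between the genotypes in dry seeds, 2 in the first interaction and 1 in the second. From the arrays of the contrast alone 5 passed on drying in KD and 12 between the genotypes at 16DAF. With both arrays of a conflicting source name left out, 14 passed at 16DAF, 4 in dry seeds and 1 in the first interaction. In dry seeds 9 passed with a trended variance and 7 with the replicate block, which moved no other count of calls by over 1.5 times. The dimmest probe set gave 1 member in the first interaction. With any 1 array left out, counts ranged from 24 to 31 and 9 to 18 at the WT steps, 0 to 16 and 2 to 5 at the KD steps, 24 to 32, 13 to 27 and 1 to 15 between the genotypes at 14DAF, 16DAF and dryness, and 0 to 2 and 0 to 1 in the interactions. Without WT 16DAF replicate 1 or 2, 5 members passed on drying in KD. Without WT 14DAF replicate 1 or WT 16DAF replicate 1, 2 passed the first interaction, and without WT 16DAF replicate 2, 1 passed the second; the causes were not tested. Of 540 refits of the 27 single changes named by the rule, 520 stayed past the threshold, 20 did not and 0 changed sign. Centring moved the median of all probe sets on drying to 0.23 (WT) and 0.21 (KD), since the dry arrays have lower medians, and to 0.15 and 0.12 at the earlier step. Increases were 47.2% of all calls at the first WT step (59% centred), 54.7% on drying (70.5%), and 48.8% and 56.1% at the KD steps (67.4% and 70%), and KD was higher in 46.1% of calls at 14DAF (56.7% after quantile normalization).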

Other observations

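The probe set shared by AT5G27120, a Nop58-type member, and its neighbour in name AT5G27140 read 6.25 and 6.21, 6.4 and 7.26, and 8.28 and 8.02 in WT at 14DAF, 16DAF and dryness, and 8.14 and 8.36, 8.57 and 9.07, and 9.27 and 8.99 in KD. KD was higher by 2.02 (SE 0.265, adjusted p = 0.00231) at 14DAF and 1.99 (SE 0.265, adjusted p = 0.00153) at 16DAF, and the value in dry seeds was 0.98 (adjusted p = 0.0507). It cannot be assigned to 1 of the genes.

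AT1G79150 was the member with more than 1 probe set. The dimmer one read 5.37 on both WT 14DAF arrays and between 7.53 and 8.72 on the other 10. It rose by 2.27 (SE 0.161) in WT and by 0.68 (SE 0.161, adjusted p = 0.0284) in KD from 14DAF to 16DAF, and this difference passed (interaction -1.59, SE 0.228, adjusted p = 0.0292), where the brighter probe set gave -1.44 (SE 0.266, adjusted p = 0.058). On the dimmer probe set KD was higher by 2.47 (SE 0.161, adjusted p = 0.000229) at 14DAF and 0.88 (SE 0.161, adjusted p = 0.00678) at 16DAF. Its value in dry seeds was 0.545 (adjusted p = 0.0706).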
